A study of Mus musculus with 12 samples.

Results

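The 2 mouse liver ChIP-seq libraries titled H3K36 were compared with the 2 libraries titled INPUT over all 532 stretches of the genome that the 12 deposited coverage tracks share. These 4 libraries are 4 of the 12 in the series. The stretches are 370 to 1170 bp long (median 373 bp) and surround known or candidate genes of RNA polymerase III (Pol III). 393 hold a predicted tRNA gene, 64 another RNA gene and 75 matched no gene, and in 371 a predicted tRNA gene lay exactly 150 bp from both ends. A stretch was counted as carrying H3K36-titled signal when its mean coverage reached 2 reads per base in both H3K36-titled libraries, and 10 of 532 did (1.88%). All 10 lay inside protein-coding genes. This limit is not scaled for depth, and 30 of 532 stretches reached it in both input libraries, which held more reads.

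All groups used here came from liver of C57/BL6 males, 12 to 14 weeks old, for which the labels name no transgene or drug, kept on a cycle of 12 h light and fed at night for the last 7 days. Livers were taken from 5 mice at Zeitgeber time 2 h (hours after lights on) and from 5 mice at 26 h, the latter serving as biological replicate. Neither the time behind each replicate number nor any pooling of livers is given in the labels, so the p-values below measure the spread between libraries. The groups are the H3K36-titled and INPUT libraries (input is chromatin without immunoprecipitation), RPC1 and RPC4 (Pol III subunits), RPB2 (an RNA polymerase II, Pol II, subunit) and the H3K4-titled libraries, each with n = 2.

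The title and the antibody field of the histone libraries disagree. The libraries titled H3K36 carry an antibody field naming H3K4me3, and those titled H3K4 carry a field naming H3K36me3. The title, the file and the track header name the same mark, and the groups are called H3K36-titled and H3K4-titled after them. Which antibody was used cannot be told from these labels. As values that bear on the names, the 48 stretches within 1000 bp of a protein-coding start had a median mean coverage of 8.32 reads per base in the H3K4-titled libraries, and the 355 stretches over 10000 bp away had 0.462. The same sets had medians of 0.354 and 0.237 in H3K36-titled library 1, and of 0.204 and 0.204 in library 2. They also differed in mean Pol III coverage (medians 89.4 and 7.08) and mean RPB2 coverage (6.37 and 1.41). Closeness to a start and polymerase coverage cannot be told apart in these sets.

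Pol III transcribes short genes, among them the tRNA genes, 5S rRNA, U6, 7SK, 7SL and the RNA subunits of RNase P and RNase MRP. tRNA genes carry their promoter inside the transcribed part as an A box and a B box, whereas U6 and 7SK have upstream promoters. Trimethylation of lysine 36 of histone H3 (H3K36me3) is placed by SETD2, an enzyme that travels with elongating Pol II, and is known for covering the bodies of transcribed protein-coding genes, while trimethylation of lysine 4 (H3K4me3) marks starts of active genes. A Pol III gene that lies in an intron or exon of a Pol II gene can therefore sit in chromatin of its host.

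The H3K36-titled libraries held the fewest reads of the series over the 532 stretches. They had 1754 and 1273 reads there (coverage divided by the read length of 76 bp). The input libraries had 3563 and 3365, and the Pol III libraries 82276 to 160705. A median stretch held 1.27 and 1.00 reads in the H3K36-titled libraries and 5.41 and 5.50 in input. 127 and 130 stretches had no H3K36-titled read, and 54 had none in either library, while no stretch was empty in both input libraries. A stretch of median length with 1 read has a coverage of 0.204 reads per base, so most stretches were near the level of a lone read. The numbers of reads outside the stretches, and so the full depths, are unknown. A bulk liver sample also cannot tell apart a mark on few cells from a weaker mark on all cells.

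Of the 10 stretches with signal, 5 held a predicted tRNA gene and 5 matched no gene in the annotation or in the cloverleaf search used for tRNA genes. No annotation of tRNA genes or of short interspersed repeats (SINEs) was at hand. Whether any of the 10 holds such a repeat was not tested. The letters of 3 predicted tRNA genes are set beside those of a strongly occupied tRNA gene of the same predicted name. That name follows the predicted anticodon alone, and likeness to tRNA genes of other names was not tested. The 3 predicted tRNA genes that lie in introns are printed here 5′ to 3′ (mm9), each followed by the stretch of the same tRNA name with the highest Pol III coverage. Capitals mark the positions that did not match in the alignment of the pair.
Ubr4 tRNA-Val (AAC), chr4:138986421-138986492, minus strand: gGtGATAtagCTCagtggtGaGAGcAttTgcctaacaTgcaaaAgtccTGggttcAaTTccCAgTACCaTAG
Its comparator, chr3:30500192-30500264, plus strand: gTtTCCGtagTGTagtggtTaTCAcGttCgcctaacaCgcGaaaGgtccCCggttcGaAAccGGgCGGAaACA
Dhx9 tRNA-Ile (TAT), chr1:155305794-155305866, plus strand: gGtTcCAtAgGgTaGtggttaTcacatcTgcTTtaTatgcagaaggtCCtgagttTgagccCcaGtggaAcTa
Its comparator, chr17:84261284-84261376, plus strand: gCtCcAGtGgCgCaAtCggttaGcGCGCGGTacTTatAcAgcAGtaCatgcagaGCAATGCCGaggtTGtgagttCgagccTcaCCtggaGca
Aqr tRNA-Asp (GTC), chr2:113929103-113929174, plus strand: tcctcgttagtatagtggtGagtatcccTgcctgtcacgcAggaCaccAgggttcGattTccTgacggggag
Its comparator, chr10:90644842-90644913, minus strand: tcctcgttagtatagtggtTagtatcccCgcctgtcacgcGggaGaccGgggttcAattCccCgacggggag

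The Aqr gene matched its comparator at 64 of 72 positions (88.9%). The Ubr4 gene matched at 42 of 73 aligned positions (57.5%). The Dhx9 gene matched at 53 of 94 aligned positions (56.4%), of which 22 were gaps, since the comparator is 93 nt long and the Dhx9 gene 73 nt. The 2 tRNA-Ala (AGC) genes, in exons of Cdkn2aipnl and Mmgt1, matched the most occupied tRNA-Ala (AGC) gene at 63.5% and 67.6% of aligned positions. The comparators had mean Pol III coverages of 120 to 294 reads per base and H3K36-titled coverages of at most 0.260 reads per base.

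The letters GTTCNANNC, a short form of the B box, were searched on both strands of every stretch. They occurred in 426 of 532 stretches (80.1%), in 373 of 393 with a predicted tRNA gene (94.9%), in 5 of the 10 with signal and in 2 of the 5 with signal and a predicted tRNA gene, Ubr4 and Aqr. In Ubr4 the match lay within the printed tRNA gene, whereas the printed Aqr and Dhx9 genes held none, so the match of Aqr lay outside the gene. A match is a string of letters and no measured site.

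The unmatched stretch in Rps6kc1 is shown because a tandem repeat makes up its core. The 211 bp between its flanks (chr1:192726642-192726852, plus strand, mm9) hold 7 copies of a 22 bp unit, in capitals, each 28 bp from the next.
Rps6kc1 core: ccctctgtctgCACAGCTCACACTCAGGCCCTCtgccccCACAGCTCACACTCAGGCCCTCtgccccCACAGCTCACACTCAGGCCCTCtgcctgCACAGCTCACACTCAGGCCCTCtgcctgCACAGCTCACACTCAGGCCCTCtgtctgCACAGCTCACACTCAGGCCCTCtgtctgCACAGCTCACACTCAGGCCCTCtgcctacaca

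The question the comparison answers is which Pol III stretches carry more H3K36-titled coverage than chromatin without immunoprecipitation, relative to the rest of each file. The stretches with signal held 39.8% and 40.7% of all H3K36-titled reads in the files (698 and 518 reads) and 3.20% and 3.18% of input reads, on 1.91% of the covered length. In the fit across all stretches (limma, coverage scaled by file totals, Benjamini-Hochberg adjustment), 9 of 478 tested stretches were above input (1.88%) and 0 below. All 9 were among the 10 with signal, which were themselves chosen by their H3K36-titled coverage, so their place in this comparison is partly set by that choice. At an unadjusted p under 0.05 the fit had 24 stretches above and 75 below. The count below input changed with the setting and was 193 with coverage as deposited, 79 with all 12 libraries in the fit and 22 to 95 when a library was left out. Without scaling, the mean H3K36-titled coverage exceeded the mean input coverage in 40 of 532 stretches, and every H3K36-titled value exceeded every input value in 17, the 10 with signal among them.

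The number of calls changed with the library left out, and the differences themselves moved to varying degrees. Pisd, at 3.80 (log2) with all 4 libraries, was 3.82 without INPUT replicate 1 and 3.79 without INPUT replicate 2. Mmgt1, at 3.03 with all 4, was 1.69 and 4.48. Without H3K36 replicate 1 the fit called 19 stretches above input and without H3K36 replicate 2 it called 26, all 10 with signal among them in each. Without INPUT replicate 1 the fit called 2 stretches above input, and without INPUT replicate 2 it called 5, all of them among the 10. In each of these fits the lone library of a group is assumed to vary like the other group. A changed count is therefore not by itself a change in the differences. The difference was positive for all 10 under all alternative settings tried. The 10 were chosen by their H3K36-titled coverage and the settings reuse the same values, so this sign is partly set by that choice.

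**Figure D1:**
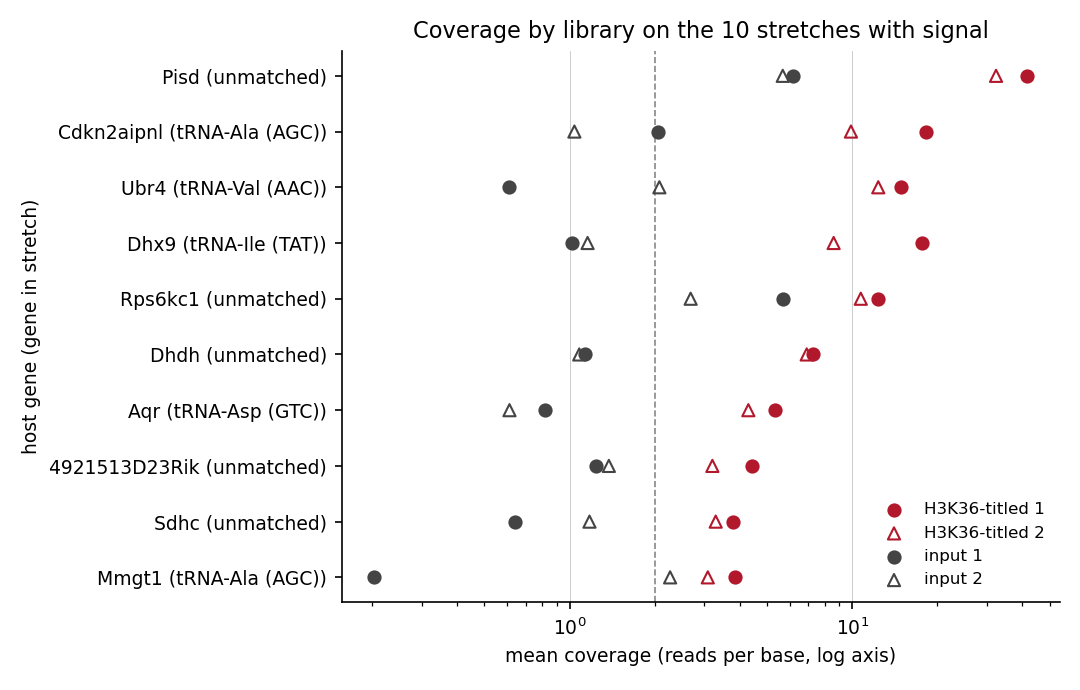
Mean coverage in reads per base (log axis) of the 10 stretches with signal, named by host gene and by the gene in the stretch, in each H3K36-titled library (red) and each input library (dark). In all 10 rows both red marks lie to the right of both dark marks, and the dashed line is the minimum of 2 reads per base.

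The strongest stretch matched no gene and lies in Pisd, which encodes phosphatidylserine decarboxylase, a mitochondrial phospholipid enzyme. It spans chr5:33079447-33079855 in a UTR exon, 48644 bp from the start of the 49347 bp gene. Its H3K36-titled coverage was 41.5 and 32.3 reads per base, and its input coverage 6.17 and 5.68. The H3K36-titled libraries were thus 6.23 times the input libraries in unscaled coverage, and the difference in the fit was 3.80 (log2, SE 0.27, adjusted p = 0.0026). Its input was also 5.72 times the median of all stretches, the second highest of 532.

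The Rps6kc1 stretch also had much input coverage. It lies in an intron of Rps6kc1, which encodes a kinase-like protein, at chr1:192726492-192727002, 8902 bp from the start of a gene of 211569 bp. Its H3K36-titled coverage was 12.3 and 10.7 reads per base, against 5.71 and 2.68 in input. The difference was 2.70 (log2, SE 0.38, adjusted p = 0.035), with 59.7% of covered bases in the H3K36-titled libraries and 58.5% in input at fractional values. How the authors came to such fractional values is not given in the sources used here.

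Pisd and Rps6kc1 were 2 of the 14 stretches with a mean input of at least 4 reads per base. The other 12 lacked signal by the rule of 2 reads per base, and their mean H3K36-titled coverages were 0.50 to 2.30 (median 1.48). The part of high input in the H3K36-titled coverage of these stretches was not tested.

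The tRNA-Val (AAC) stretch in Ubr4, a gene for a large ubiquitin ligase, lies on the strand opposite to its host (chr4:138986271-138986642, intron, 77932 bp from the start). H3K36-titled coverage was 14.9 and 12.4 reads per base, against 0.613 and 2.08 in input. The difference of 4.54 (log2, SE 0.53, adjusted p = 0.0172) was the largest of the called stretches with all 4 libraries. Its size moved with the input library kept: it was 3.76 (adjusted p = 0.063) without INPUT replicate 1, below Dhx9 (4.38) and Cdkn2aipnl (4.64), and 5.37 (adjusted p = 0.024) without INPUT replicate 2.

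Next was the tRNA-Ile (TAT) stretch in Dhx9, which encodes an RNA helicase (chr1:155305644-155306016, intron, opposite strand, 28960 bp from the start). The H3K36-titled libraries reached 17.6 and 8.59 reads per base, and the input libraries 1.02 and 1.16. Both H3K36-titled libraries were far above both input libraries. The difference was 4.48 (log2, SE 0.29, adjusted p = 0.0026).

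The tRNA-Ala (AGC) stretch in Cdkn2aipnl, a gene encoding a small relative of a CDKN2A-interacting protein, is the only predicted tRNA among the 5 on the same strand as its host (chr11:51789891-51790262, UTR exon, 8913 bp from the start of 9674 bp). The H3K36-titled libraries had 18.2 and 9.90 reads per base, against 2.05 and 1.04 in input. The groups did not overlap, and the difference was 4.23 (log2, SE 0.35, adjusted p = 0.0044).

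The tRNA-Asp (GTC) stretch in Aqr, which encodes an intron-binding helicase of the spliceosome, had the lowest Pol III coverage of the 10 (chr2:113928953-113929324, intron, opposite strand, 83622 bp from the start of 85855 bp). The H3K36-titled libraries had 5.34 and 4.29 reads per base, and the input libraries 0.817 and 0.613. The difference was 3.64 (log2, SE 0.26, adjusted p = 0.0026). With the 4921513D23Rik stretch it was called above input under all alternatives, also without either input library.

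The second tRNA-Ala (AGC) stretch, in Mmgt1, a gene for a membrane protein of the endoplasmic reticulum, is the member that did not pass the test (chrX:53840566-53840938, UTR exon, opposite strand, 10494 bp from the start). Its H3K36-titled coverage was 3.84 and 3.08 reads per base. Its input coverage was 0.204 in the first library, the level of 1 read, and 2.27 in the second. The difference was 3.03 (log2, SE 0.86, adjusted p = 0.127), and the input libraries lay far apart.

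3 further unmatched stretches completed the set, and all 3 were above input. The stretch in Dhdh, which encodes dihydrodiol dehydrogenase, lies in an intron 3497 bp from the start of its host and 954 bp from the start of Tulp2 (chr7:52740441-52740916). Its H3K36-titled coverage was 7.28 and 6.90 reads per base, its input coverage 1.14 and 1.08, and the difference 3.67 (log2, SE 0.26, adjusted p = 0.0026). The replicates of this stretch were the closest of the 10 in unscaled coverage.

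The stretch in Sdhc, a gene for a membrane subunit of succinate dehydrogenase, lies in a coding exon (chr1:173073472-173073939, 7029 bp from the start). It had 3.79 and 3.29 reads per base in the H3K36-titled libraries, against 0.642 and 1.18 in input, and no H3K4-titled read covered it. The difference was 2.96 (log2, SE 0.36, adjusted p = 0.0172). The stretch in 4921513D23Rik lies in an intron (chr16:14131721-14132225, 27394 bp from the start). It had 4.4 and 3.20 reads per base in the H3K36-titled libraries and 1.24 and 1.38 in input, a difference of 2.56 (log2, SE 0.25, adjusted p = 0.0077).

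Just outside the limit of 2 reads per base was the tRNA-Gly (GCC) stretch in Vac14, with H3K36-titled coverages of 2.05 and 1.64 and input coverages of 2.49 and 1.59. Just inside it was the Mmgt1 stretch. 7 stretches reached 2 reads per base in the first H3K36-titled library only, 4 of them inside genes, and 0 in the second only. The lone tRNA-Glu (CTC) stretch in Arrb1, named after its values were seen, had 2.59 and 0.613 reads per base against 0.613 and 0.446 in input, and its difference of 2.12 (log2, SE 0.59) did not pass the test (adjusted p = 0.121).

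**Figure D2:**
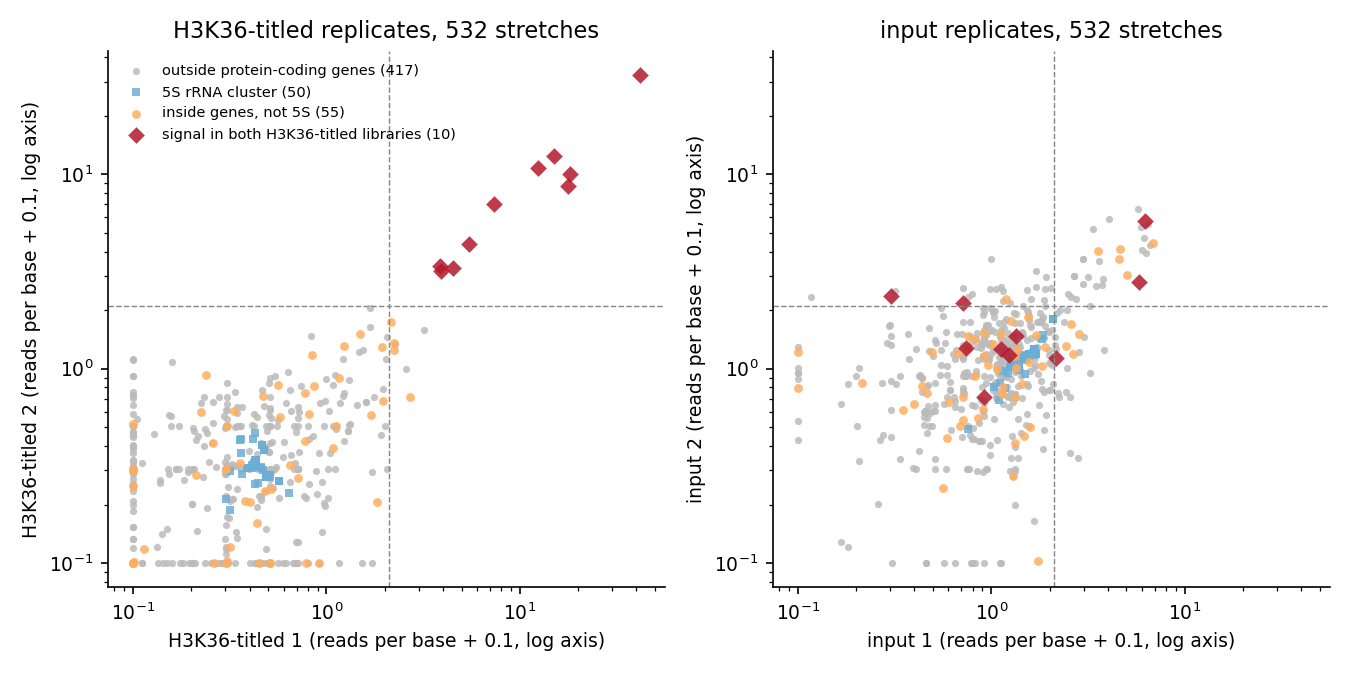
Mean coverage in the first (x axis) and second (y axis) library, in reads per base with 0.1 added on log axes, of the 532 stretches in the H3K36-titled (left) and input (right) libraries, by place. The 10 stretches with signal stand apart at the upper right of the left panel, and of these only Pisd and Rps6kc1 exceed 2 reads per base (dashed lines) in both input libraries.

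In the plot of H3K36-titled replicates the 10 stretches with signal, chosen by these values, form a tail. A shift of all stretches against input cannot be read from it, and scaling by file totals would remove such a shift. Across the 532 stretches the H3K36-titled libraries had a Spearman's rho of 0.382 with each other and the input libraries 0.406, a description over stretches at depths of 1 to 6 reads. In both groups most of the order of single stretches was thus not shared by the replicates. Replicates differed by a median of 0.85 (absolute log2) in the H3K36-titled group and 0.45 in input. The median difference between H3K36-titled and input shares was -0.83 (log2). With file totals taken without the 10, and the pseudocount recomputed, it was -0.31.

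Outside the 10, H3K36-titled shares stood above both input shares in both libraries in 34 further stretches, 44 of 532 in all (8.27%), and below both in 266 (50%). In single stretches these orders rest on a few reads. Of the 34, 11 lay inside genes.

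All 10 lay in host genes. Of the 532 stretches, 115 lay inside protein-coding genes, but 50 of these are the 5S rRNA stretches, all of which fall inside Gm20388, a gene model of 4434882 bp. Of the other 65 inside stretches, 62 were tested and 9 called above input. Of the 417 outside stretches, 366 were tested and 0 called, with 9 of 478 (1.88%) over all. The 10 lie in 10 different hosts on 8 chromosomes, and none of these hosts holds another of the 532 stretches. The H3K36-titled share stood above both input shares in both libraries in 21 of 65 inside stretches (32.3%) and in 23 of 417 outside (5.52%), beside the 8.27% of all. The 21 include all 10 with signal, which were chosen by their H3K36-titled coverage. Without them it was 11 of 55 inside stretches (20%).

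Summed over the files, the 65 inside stretches took 50.8% and 50.4% of H3K36-titled reads and 15.4% and 14.2% of input reads. The outside stretches took 43.9% and 44.8% of H3K36-titled reads and 73.7% and 77.2% of input reads. Without the 10, the other 55 inside stretches took 10.99% and 9.72% of H3K36-titled reads and 12.2% and 11.04% of input reads. Over the reads that remain when the 10 are left out, the 55 held 18.2% and 16.4% of H3K36-titled reads and 12.6% and 11.4% of input reads.

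A median over stretches gave a smaller difference. The median log2 coverage inside genes minus outside was 0.55 and 0.13 in the H3K36-titled libraries and 0.36 and 0.12 in the input libraries. The H3K36-titled minus input difference of these values was 0.09 (log2), within their combined SD of 0.34, and a two-sided exact permutation test over the 4 libraries gave p = 0.667, where 2 against 2 cannot go below 0.33. Without the 5S stretches the values were 0.91 and 0.79 against 0.09 and 0.10, a difference of 0.76. Without the 5S stretches and the 10 they were 0.66 and 0.08 against 0.09 and -0.04, a difference of 0.34 with the H3K36-titled replicates far apart.

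The position within the host differed between the 10 and the other 55 inside stretches, as a description with limits set after the values were seen. All 10 lay between 3497 and 83622 bp from the start of the host, and none of the 15 inside stretches within 3000 bp of it was among them. 4 of the 10 (Pisd, Aqr, Cdkn2aipnl and Dhx9) lay in the last 10% of the host and 3 lay before its midpoint. Among the other 55, 2 lay in the last 10% and 39 before the midpoint. The 10 comprised 6 in introns, 3 in UTR exons and 1 in a coding exon, whereas 52 of the other 55 lay in introns. Of the predicted tRNA genes inside hosts, 4 of the 5 with signal and 17 of the other 32 ran opposite to the host.

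**Figure D3:**
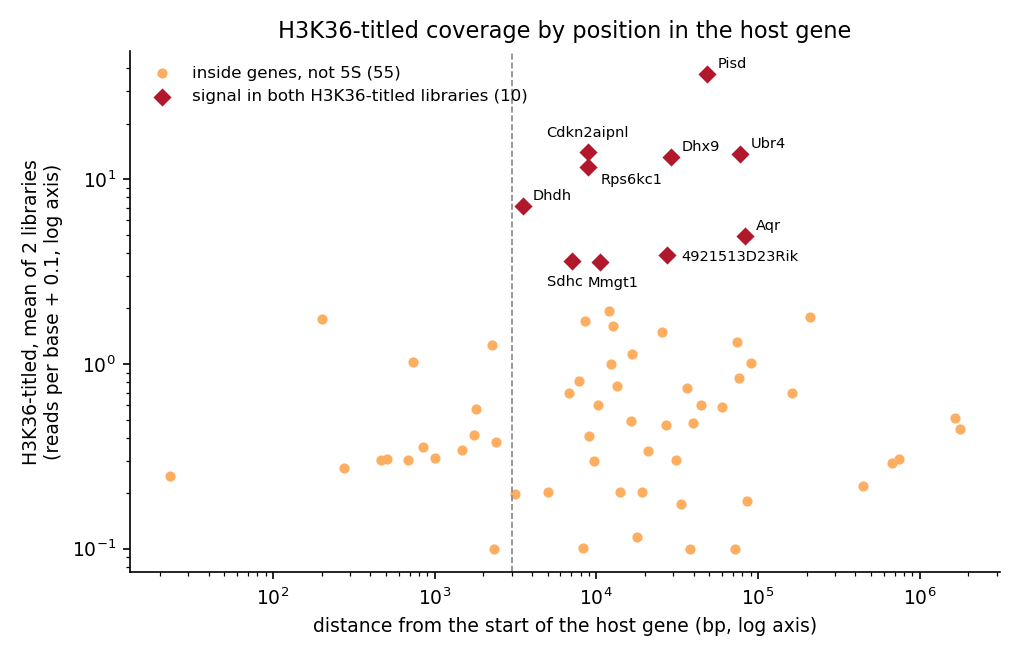
Mean H3K36-titled coverage (reads per base with 0.1 added, log axis) against the distance from the start of the host gene (bp, log axis) of the 65 stretches inside protein-coding genes other than 5S rRNA. The 10 with signal, named by host, all lie beyond the dashed line at 3000 bp, as do 50 of the 65 stretches.

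By class, the predicted tRNA stretches gave 4 of 348 tested above input and the unmatched stretches 5 of 69, beside 1.88% of all tested stretches. Inside genes these were 4 of 34 tRNA and 5 of 27 unmatched stretches. Outside they were 0 of 314 and 0 of 42, so the class counts also depend on how many of each class lie inside genes. 37 tRNA stretches lay inside genes, with medians of 0.408 and 0.204 reads per base in the H3K36-titled libraries, and 356 outside, with 0.204 and 0.204. 27 unmatched stretches lay inside genes, with medians of 0.677 and 0.50, and 48 outside, with 0.228 and 0.247. Input medians of the unmatched stretches were 1.14 and 1.10 inside and 1.22 and 1.10 outside, so the inside stretches were not higher in input.

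The 50 5S rRNA stretches were uniform and low. Their H3K36-titled coverage was 0.202 to 0.543 in the first library and 0.0880 to 0.368 in the second, against 0.389 to 1.99 over both input libraries. 0 of 50 were called, beside 1.88% of all tested stretches, and 48 had shares below both input shares in both libraries, beside 50% of all stretches. The repeats of this cluster are near-identical, so single copies cannot be told apart and the 48 are not independent observations.

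Pol III coverage of the 10 was low. Averaged over the RPC1 and RPC4 libraries, it ran from 0.454 to 8.72 reads per base (median 3.51), all below the median of 15.2 over the 532 stretches, and 4 were at or under the lowest quartile (1.64). The 55 other inside stretches had a median of 4.81, with a range of 0.0790 to 231, so low Pol III coverage was common inside genes. 9 of 240 tested stretches below the Pol III median and 0 of 238 above it were called above input, beside 1.88% of all.

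Among the 10, the Pol III values fell into separate ranges by class. The classes also differed over all stretches inside genes, the 10 included. Median Pol III coverage there was 1.68 in the 37 tRNA and 5.8 in the 27 unmatched stretches. The 5 unmatched stretches had means of 5.35 to 8.72 reads per base, with ranks of 294 to 334 among 532. In 4921513D23Rik the RPC1 libraries had 8.63 and 4.59 and the RPC4 libraries 9.31 and 12.4. In Pisd the RPC1 libraries had 6.68 and 4.59 and the RPC4 libraries 9.48 and 9.39. The 5 tRNA stretches had means of 0.454 to 1.68, with ranks of 396 to 505. In Ubr4 the 4 libraries had 0.559, 0.629, 1.19 and 1.08, and in Aqr 0.613, 0.204, 0.852 and 0.145. Mean Pol III coverage was below mean input coverage in 4 of the 5 and slightly above it in Cdkn2aipnl (1.68 against 1.54), although the Pol III files held far more reads.

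Pol II coverage of the 10 was not low. RPB2 averaged 0.613 to 7.71 reads per base (median 2.38), and 8 of 10 exceeded the median of 1.90 over all stretches. The other inside stretches had a median of 1.61. By class, and with the 10 included, the medians inside genes were 1.14 for tRNA and 2.80 for unmatched stretches. Pisd had 6.08 and 9.35 in the RPB2 libraries, Dhdh 6.32 and 4.65, and Ubr4 3.44 and 1.35. Aqr (0.817 and 0.409) and Mmgt1 (0.408 and 0.831) were the 2 below the median. In unscaled coverage, Pol III exceeded RPB2 in 476 of 532 stretches and in 3 of the 10.

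**Figure D4:**
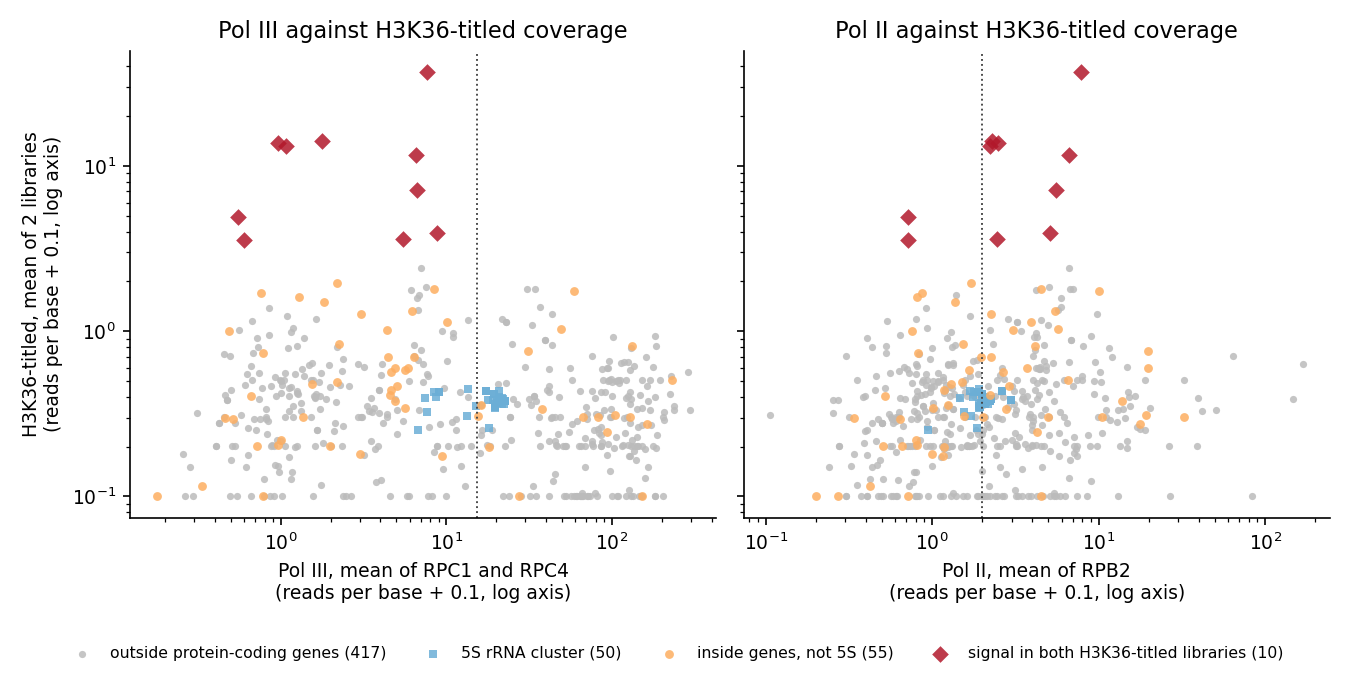
Mean H3K36-titled coverage against mean Pol III coverage (left, RPC1 and RPC4) and mean Pol II coverage (right, RPB2) of the 532 stretches by place, all in reads per base with 0.1 added on log axes. The 10 stretches with signal lie to the left of the Pol III median (dotted line) and 8 of them to the right of the RPB2 median.

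Across the 532 stretches the H3K36-titled libraries and Pol III had Spearman's rho of -0.07 and -0.16, a description over stretches that share their depth and gene class. These values include the 10.

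The H3K4-titled libraries gave another picture of the same stretches. 9 of the 10 were below the median H3K4-titled coverage of 1.26 reads per base, and Pisd, at 2.02 and 3.35, was the exception. The other 55 inside stretches were also low in the H3K4-titled libraries (median 0.563). In all 10 both H3K36-titled values exceeded both H3K4-titled values. The 10 were chosen by their H3K36-titled coverage, so this order is partly set by that choice. Over all stretches the H3K4-titled files held 17033 and 26665 reads. Sdhc had 0 in both H3K4-titled libraries, and Dhx9 had 0.204 and 0. Over all stretches Spearman's rho between each H3K36-titled library and mean H3K4-titled coverage was 0.009 and -0.08.

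Coverage within the stretches was compared between the core and the 150 bp flanks. In the 5 tRNA stretches with signal, the median ratio of core to flank was 1.96 for H3K36-titled, 0.776 for input and 1.59 for Pol III coverage. In the 10 stretches with the highest Pol III coverage the median ratios were 1.05, 0.917 and 2.03. In the 5 unmatched stretches with signal they were 1.70, 3.18 and 3.21, with H3K36-titled ratios of 0.522 to 6.86. Single libraries differed widely in these ratios. In the tRNA stretches the H3K36-titled libraries had medians of 2.44 and 1.21 and the input libraries 1.42 and 0.55, so the second H3K36-titled library was under the first input library. In the unmatched stretches the H3K36-titled libraries had medians of 3.12 and 0.825, on either side of 1, and the input libraries 1.83 and 4.46. No difference in shape between H3K36-titled and input coverage is therefore read from them.

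The 10 stretches with the highest Pol III coverage, all predicted tRNA genes with means of 204 to 294 reads per base, all had H3K36-titled coverages under 1 read per base. The tRNA-Ala (AGC) stretch beside Agbl5 (chr5:31190738-31191110, 143 bp from its start) had 0.260 and 0.204 reads per base in the H3K36-titled libraries against 1.05 and 2.14 in input. The tRNA-His (GTG) stretch 8841 bp from Shf (chr2:122203554-122203925) had 0.409 and 0.527 against 0.451 and 0.941. The tRNA-Met (CAT) stretch at chr8:124102979-124103351, the only member of these 10 inside a gene model, Gm20388, had 0.815 and 0 against 1.06 and 0.708. None of these 10 was called, beside 1.88% of all tested stretches, and their differences ran from -1.71 to 0.57 (log2).

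The RNA genes other than tRNA and 5S had coverage near single reads. 7SK, which regulates Pol II elongation (chr9:78022960-78023590), had 0.348 and 0.120 reads per base in the H3K36-titled libraries against 0.972 and 0.957 in input. The RNase MRP RNA stretch (chr4:43505510-43506080), which overlaps the gene model of Ccdc107, had 0.111 and 0.184 against 0.727 and 0.812. The RNase P RNA stretch had 0.365 and 0 against 0.365 and 0.717. The 2 stretches of 7SL, the RNA of the signal recognition particle, had 0.590 and 0.226, and 0.410 and 0.204.

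Among the 5 U6 stretches, the RNA of the spliceosome, a single value stood out. The stretch at chr10:79448101-79448507 had 1.62 in the first H3K36-titled library and 0.193 in the second, against 0.378 and 0.405 in input, a difference of 1.41 (log2, SE 0.85, adjusted p = 0.351). The U6atac stretch had 0.178 and 0, and the Y RNA stretches 0 and 0, and 0 and 0.553. The Vault RNA stretch, named after its values were seen, had no read in either H3K36-titled library against 1.46 and 1.76 reads per base in input (adjusted p = 0.078). None of the tested stretches of these genes was called, and for those with a lone read or none a difference was not detectable with so few reads.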

How the data were processed

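ChIP-seq coverage of mouse liver was used as deposited. The deposited files hold signal, the coverage by reads at each base, and the values show no scaling for depth by the authors: a read lying alone adds 1 over 76 bp. Genome positions are on mm9, per the submitters' processing notes. Which aligner was used is not given in the sources used here. Abutting lines were joined into stretches, whose value is the mean coverage per base. 532 stretches were shared by all files, and 1 further stretch was left out. Gene models came from GENCODE for NCBIM37 (mm9). tRNA genes are predictions of a cloverleaf search requiring at least 17 stem pairs, not checked against an annotation of tRNA genes or repeats. A cloverleaf lay exactly 150 bp from both ends in 371 stretches when the file start was read as 1-based and in 0 when it was shifted by 1 or 2 bp. RefSeq (GRCm38.p6) gave the names of neighbouring RNase P and 7SL genes only.

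Coverage was divided by file totals over the stretches and tested as log2(scaled coverage + 0.131), the 5th percentile of nonzero values, with limma 3.58.1 in R 4.3.3 (4 libraries, mean-variance trend, two-sided, adjusted p threshold 0.05). Fold changes of low stretches are understated on this scale. The lowest 10% by mean coverage were left out. Median-of-ratios size factors, background-anchored scaling, unscaled coverage, other pseudocounts, no filter, all 12 libraries, a replicate block, merged regions (gap of 1000 bp) and leaving out each library were the alternatives. On simulated data at the real depths, 9 of 10 stretches changed 16-fold and 1 of 10 changed 4-fold were recovered, and 0 of 512 unchanged were called. All 4 simulated libraries had the same dispersion, whereas the real replicates differed by a median of 0.85 (absolute log2) in H3K36-titled and 0.45 in input libraries. These counts are therefore not error rates of the real comparison. Python 3.11.15, pandas 2.3.3 and Biopython 1.88 were used for tables and alignments.

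Named stretches were those called above input (up to 20) or below (up to 5), those with signal (up to 12), the 10 with the highest Pol III coverage and the 7SK, RNase MRP, RNase P, 7SL, U6, U6atac and Y RNA stretches. Members, lists and limits were chosen with earlier results of these data known.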

Additional observations from a re-analysis of the deposited data

How the results depend on the processing

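The number of stretches above input (9) was 9 to 11 under other scalings and pseudocounts, no filter and merged regions, 16 with all 12 libraries in the fit and 2 to 26 when a library was left out. It was 19 without H3K36 replicate 1, 26 without H3K36 replicate 2, 2 without INPUT replicate 1 and 5 without INPUT replicate 2. The number below input (0) was 193 with coverage as deposited, which moved the median difference to -1.80 (log2), 1 with a doubled pseudocount, 5 with a pseudocount of 1 read per base, 79 with all 12 libraries, 4 with merged regions and 22 to 95 when a library was left out. The median-of-ratios and anchored scalings gave medians of -0.38 and -0.50 and 0 below. A replicate block gave 15 above and 38 below. Same-numbered libraries did not deviate together (r = 0.0319 over 478 stretches), and the labels share only a number. The number with signal (10) was 25 with a minimum of 1 read per base, 7 with a minimum of 4, 20 with a maximum of at least 4 reads within the stretch, 9 without the stretch of mostly fractional coverage and 10 to 17 when a replicate was left out. The inside minus outside difference (0.09) was 1.99 from mean coverages and 0.76 without 5S stretches. Leaving out a library gave -0.12 to 0.30, with -0.12 without H3K36 replicate 1 and -0.03 without INPUT replicate 2. The cause of these changes was not tested. File totals without the stretches with signal (10 above, 0 below) and the inside minus outside difference without 5S and those stretches (0.34) were added after seeing the data. Low read numbers limit all calls to stretches with many reads.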
